A study of Homo sapiens with 6 samples.

Results

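The 7 genes described here are the simple-epithelial keratins KRT7, KRT8, KRT18 and KRT19, the mucosal keratins KRT4 and KRT13, and KRT80. They were taken by name from a table of 21462 genes, and all 7 were found. The cells were HO-1-N-1, an established line of human oral squamous cell carcinoma, and messenger RNA was sequenced from 3 libraries given an siRNA against Sam68 (numbered 1, 2 and 3) and 3 given a control siRNA (numbered 1, 3 and 5). All 6 received a lipid transfection reagent and poly(A) RNA was selected, so the comparison is between siRNAs within a single line. The siRNA sequences and the time of harvest were not at hand. Nothing in the labels tells separate cultures from repeat libraries of a culture, so each p-value reflects the spread of these 6 libraries and that spread may be technical. In bulk samples like these, fewer cells of a type and less RNA per cell cannot be told apart.

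Keratins are the intermediate filament proteins of epithelial cells. A filament is built from pairs of a type I (acidic) and a type II (basic) chain, so an epithelium makes members of each type together. KRT8 (type II) and KRT18 (type I) are the primary pair of simple epithelia, KRT7 (type II) and KRT19 (type I) are added in ducts and glands, and KRT4 (type II) and KRT13 (type I) mark the upper layers of non-cornified mucosa such as the lining of the mouth and oesophagus. KRT80 is a type II chain found in many epithelia, near desmosomes in differentiating cells. Stratified squamous epithelium is built mainly on KRT5 and KRT14, and simple-epithelial keratins are known to appear in carcinomas that arise from it.

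Libraries held between 16402923 and 17336651 counts with the Sam68 siRNA and between 16099488 and 16798283 with the control siRNA. KHDRBS1, which encodes Sam68, stood at 26.4, 31.0 and 28.8 CPM in Sam68 siRNA libraries 1, 2 and 3, against 227, 205 and 184 CPM in control siRNA libraries 1, 3 and 5 (CPM, counts scaled to a common library size). Control siRNA replicate 5 stood apart, with 2.27% of its counts from the mitochondrial genome (95% Wilson interval 2.26% to 2.28%), against 0.300% to 0.671% in Sam68 siRNA libraries and 0.158% and 0.216% in control siRNA replicates 1 and 3, where each interval spanned at most 0.00790 percentage points. The epithelial adhesion proteins were present in every library, EPCAM at 255 ± 11.4 TPM with the Sam68 siRNA and 224 ± 30.1 TPM with the control siRNA, and CDH1 at 381 ± 24.6 TPM with the Sam68 siRNA and 353 ± 33.1 TPM with the control siRNA (SD, n = 3 each). Markers of other cell types were low. The 8 fibroblast markers summed to 12.7 to 15.7 CPM in Sam68 siRNA libraries and 15.8 to 22.2 CPM in control siRNA libraries, with PDGFRA at 0 counts throughout and DCN at 1 or fewer. FBN1 (126 to 221 counts), LUM (36 to 106) and COL1A2 (24 to 40) were counted in every library. The 6 endothelial markers summed to 2.49 to 3.21 CPM in Sam68 siRNA libraries and 2.90 to 3.88 CPM in control siRNA libraries, with KDR at 0 throughout. CDH5 was counted in every library, at 35 to 53 counts. The 6 leukocyte markers summed to 45.1 to 48.8 CPM in Sam68 siRNA libraries and 33.8 to 44.3 CPM in control siRNA libraries, most of it from CD68, a lysosomal protein, while PTPRC had 2 counts or fewer. The part of such cells in the results below was not tested.

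The 7 genes lay at very different levels in deposited TPM, a level scaled to gene length. KRT18 stood highest, followed by KRT8, KRT80, KRT13, KRT7, KRT19 and KRT4, and this order was the same in all 6 libraries. The ranges of neighbouring genes in the order did not overlap in any group. KRT18 averaged 2111 ± 70.5 TPM with the Sam68 siRNA and 2209 ± 75.6 TPM with the control siRNA (SD, n = 3 each). For scale, the basal keratins KRT5 and KRT14 averaged 2886 and 2958 TPM in Sam68 siRNA libraries and 2495 and 2752 TPM in control siRNA libraries. HO-1-N-1 thus held KRT18 somewhat below its basal pair, KRT7 far lower, and very little KRT19 or KRT4 transcript.

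**Figure D1:**
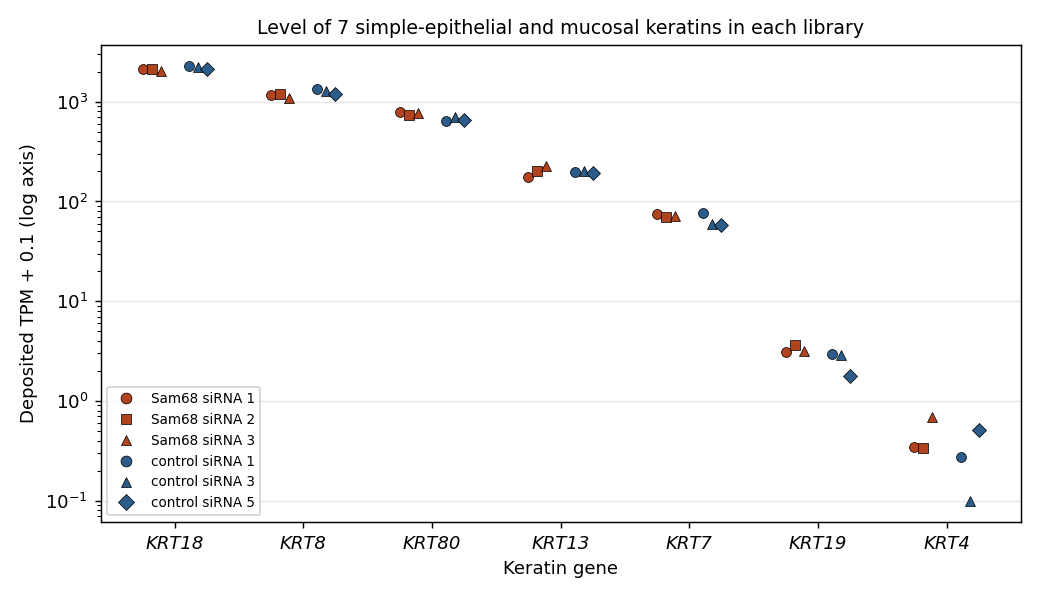
Deposited TPM plus 0.1 on a log axis for each of the 7 genes (x axis), with Sam68 siRNA libraries in red and control siRNA libraries in blue, and the marker shape giving the library number. The genes keep 1 order in all 6 libraries, and the point of control siRNA replicate 3 for KRT4 stands for 0 TPM.

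The place of KRT8 below KRT18 turned on the gene length behind the TPM. The deposited RPKM values imply a length of 5351 to 5453 bases for KRT8, against 2126 bases for its principal GENCODE transcript, a ratio of 2.52. For the other 6 genes this ratio lay between 0.863 (KRT4) and 1.24 (KRT18). KRT8 has 17 annotated transcripts whose exons together cover 6881 bases. By TPM, KRT8 held 0.562 ± 0.0190 of the KRT18 level (SD over 6 libraries). By CPM per kilobase of the principal transcript it held 1.14 ± 0.0387 of it, and lay above KRT18 in each of the 6 libraries. The levels of KRT80, KRT13, KRT7 and KRT19 relative to KRT18 were 0.334, 0.0925, 0.0318 and 0.00130 by TPM and 0.284, 0.0884, 0.0247 and 0.00116 by transcript length, in the same order. The fold change of a gene between groups does not depend on which fixed length is used. Whether the groups used the same transcripts of a gene was not tested.

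**Figure D2:**
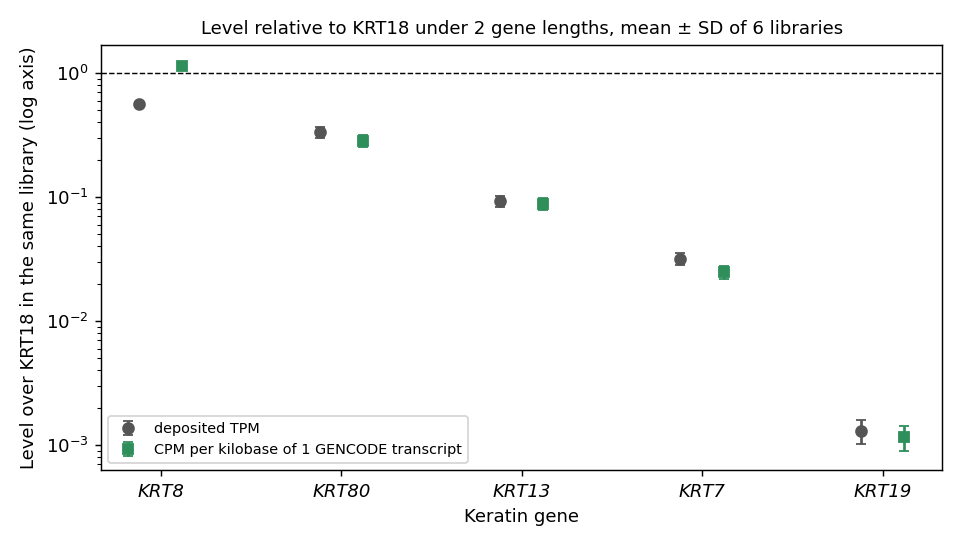
Level of 5 genes relative to KRT18 in the same library, on a log axis, by deposited TPM (grey circles) and by CPM per kilobase of a single GENCODE transcript (green squares), as mean ± SD of 6 libraries. KRT8 lies below the dashed line of equality by TPM, at 0.562, and above it by transcript length, at 1.14.

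With the Sam68 siRNA, KRT80 rose and no other gene of the set was called. The filter on low counts passed 6 of the 7 genes and left out KRT4, so 1 of 6 was called where 19.1% of all 12351 tested genes were (9.33% rose and 9.76% fell). A gene was called at an adjusted p below 0.05 by edgeR's quasi-likelihood test. The count of members that fell was 0 by edgeR, DESeq2 and limma-voom, and 1 (KRT8) at an unadjusted p below 0.05. The levels of the groups did not overlap for KRT8, KRT19 and KRT80, 3 of 6, where 38.0% of all tested genes did not overlap. The median log2 fold change of the 6 was 0.08, against -0.0048 over all tested genes. The fitted folds of the 6 ran between 0.902 (KRT8) and 1.30 (KRT19), and the interval of KRT19, with few counts, reached 1.97.

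KRT8 (ENSG00000170421, hg38 chr12:52897187-52949954, minus strand) encodes the type II chain of the simple-epithelial pair. It held 1172, 1187 and 1103 TPM in Sam68 siRNA libraries 1, 2 and 3, against 1341, 1286 and 1198 TPM in control siRNA libraries 1, 3 and 5. All 3 Sam68 siRNA libraries lay below all 3 controls, Sam68 siRNA replicate 2 only just below control siRNA replicate 5. On the scaled CPM the means were 2031 ± 100.2 with the Sam68 siRNA and 2251 ± 68.6 with the control siRNA (SD, n = 3 each). The log2 fold change was -0.15 (SE 0.05, 95% interval -0.26 to -0.04), and its adjusted p of 0.0643 by edgeR missed the threshold. By exact permutation (two-sided) the levels gave p = 0.1, and no split of 3 against 3 can go lower. Leaving out any single library gave log2 fold changes of -0.19 to -0.12 and adjusted p of 0.0526 to 0.237, so the gene was not called in any of these fits.

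KRT18 (ENSG00000111057, chr12:52948871-52952906, plus strand) encodes the type I partner and lies head to head with KRT8. It held 2157, 2146 and 2030 TPM in Sam68 siRNA libraries 1, 2 and 3, against 2268, 2235 and 2124 TPM in control siRNA libraries 1, 3 and 5. The groups overlapped, since Sam68 siRNA replicates 1 and 2 lay above control siRNA replicate 5. Its log2 fold change of -0.07 (SE 0.05, 95% interval -0.18 to 0.04, adjusted p = 0.361 by edgeR) corresponds to a fold of 0.952 with an interval of 0.881 to 1.03. Sam68 siRNA replicate 3 was the lowest library for KRT8 and for KRT18.

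How cleanly these genes can be counted was limited by shared sequence. The exons of KRT8 and KRT18 overlap on opposite strands over 525 bases, 375 of them in the principal KRT18 transcript, and whether the counting used strand is not known here, so reads there cannot be told apart. Of the 50-base windows of the principal KRT8 transcript 36.9% were also found in transcripts of 42 other genes, 33 of them pseudogenes named for KRT8. For KRT18 the share was 47.6%, with 45 other genes, 43 of them pseudogenes named for it. KRT8 shared the most of these, 326 of 720 windows, against 151 for the first pseudogene, KRT18P11. Windows were matched on both strands, so opposite-strand overlap enters these shares and matters only if counting ignored strand. The shares were 18.4% for KRT13 and 10.8% for KRT7, most of it with an overlapping antisense gene each (AC019349.1 and KRT7-AS), 1.79% for KRT19, 0.420% for KRT80 and 0 for KRT4. The rule for reads that match several places was not at hand, so the levels of KRT8 and KRT18 are uncertain by an amount that these windows do not set.

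KRT7 (ENSG00000135480, chr12:52232520-52252186, plus strand) encodes the type II chain of ducts and glands. It held 74.4, 70.3 and 71.9 TPM in Sam68 siRNA libraries 1, 2 and 3, against 76.1, 60.0 and 58.3 TPM in control siRNA libraries 1, 3 and 5. Control siRNA replicate 1 lay above all 3 Sam68 siRNA libraries and the other 2 controls below them. This gave a log2 fold change of 0.15 (SE 0.09, 95% interval -0.05 to 0.36) with an adjusted p of 0.286 by edgeR. Without control siRNA replicate 1 it was 0.27 with an adjusted p of 0.0367, and without control siRNA replicate 3 it was 0.08 with an adjusted p of 0.623, so the call for KRT7 differed with the control left out.

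KRT19 (ENSG00000171345, chr17:41523617-41528308, minus strand), the tailless type I chain, was close to the limit of what could be counted. It had 25, 31 and 25 counts in Sam68 siRNA libraries 1, 2 and 3, against 23, 23 and 14 counts in control siRNA libraries 1, 3 and 5. This was 3.18 ± 0.298 TPM with the Sam68 siRNA and 2.45 ± 0.667 TPM with the control siRNA (SD, n = 3 each). The groups did not overlap, though Sam68 siRNA replicates 1 and 3 stood only 2 counts above the nearest controls, and the lowest value was that of control siRNA replicate 5. KRT19 had a log2 fold change of 0.38 (SE 0.28, 95% interval -0.22 to 0.98, adjusted p = 0.369 by edgeR), and 0.20 without control siRNA replicate 5 (adjusted p = 0.679). Counting error alone gives a coefficient of variation of 19.2% at the mean of Sam68 siRNA libraries, where 11.2% was observed, and 22.4% at the mean of control siRNA libraries, where 24.1% was observed.

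KRT4 (ENSG00000170477, chr12:52806549-52814116, minus strand), the type II chain of mucosa, had 3, 3 and 7 counts in Sam68 siRNA libraries 1, 2 and 3, against 2, 0 and 5 counts in control siRNA libraries 1, 3 and 5. The 0 in control siRNA replicate 3 allows up to 3 counts, or 0.179 CPM without scaling. Summed over libraries these are 13 counts with the Sam68 siRNA (exact Poisson 95% interval 6.92 to 22.2) and 7 with the control siRNA (2.81 to 14.4), and the intervals overlap. They cover counting error only, and a difference was not detectable at this depth.

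KRT13 (ENSG00000171401, chr17:41500981-41505705, minus strand), the type I chain of the same mucosal pair, was present at a far higher level than KRT4. It held 177, 200 and 224 TPM in Sam68 siRNA libraries 1, 2 and 3, against 198, 203 and 193 TPM in control siRNA libraries 1, 3 and 5. The Sam68 siRNA libraries lay on both sides of the controls. The means were 200.4 ± 23.7 TPM with the Sam68 siRNA and 198 ± 4.87 TPM with the control siRNA (SD, n = 3 each). For KRT13 the log2 fold change was 0.01 (SE 0.08, 95% interval -0.16 to 0.18, adjusted p = 0.939 by edgeR). It was -0.08 without Sam68 siRNA replicate 3 and 0.10 without Sam68 siRNA replicate 1. By TPM the KRT13 transcript was thus present in HO-1-N-1 with very little KRT4 transcript. Only transcripts were counted, so the protein chains were not compared.

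KRT80 (ENSG00000167767, chr12:52168996-52192014, minus strand) encodes the desmosome-linked type II chain and rose. It held 796, 738 and 771 TPM in Sam68 siRNA libraries 1, 2 and 3, against 647, 704 and 664 TPM in control siRNA libraries 1, 3 and 5. All 3 Sam68 siRNA libraries lay above all 3 controls, and control siRNA replicate 1 was the lowest. The scaled means were 1023 ± 22.2 CPM with the Sam68 siRNA and 899 ± 41.7 CPM with the control siRNA (SD, n = 3 each), which is 1.14-fold higher. The log2 fold change was 0.19 (SE 0.05, 95% interval 0.07 to 0.31), with an adjusted p of 0.0344 by edgeR and an exact two-sided permutation p of 0.1, the smallest possible. The call was lost when most single libraries were left out. Without Sam68 siRNA replicates 1, 2 and 3 the adjusted p was 0.119, 0.0968 and 0.130, without control siRNA replicates 1 and 3 it was 0.0619 and 0.0754, and without control siRNA replicate 5 it was 0.0131. Its log2 fold change lay between 0.15 and 0.21 in these fits. The authors' deposited table lists a log2 fold change of 0.19 for KRT80 with an FDR of 0.521, and FDRs from 0.399 to 0.957 for the other 6 genes, so it calls none of the 7.

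The genes whose pattern over the 6 libraries was most like that of KRT80 were PCCB, a subunit of mitochondrial propionyl-CoA carboxylase, ST3GAL5, a sialyltransferase that makes the ganglioside GM3, and SRC, a tyrosine kinase. Likeness was the root mean square difference of the log2 CPM deviations, over 10335 candidates with a mean of at least 5 CPM. It was 0.017, 0.019 and 0.020 for these 3, against a median of 0.15. Among keratins KRT5 was nearest, at 0.040 and rank 88, and the members of the set lay at 0.14 (KRT18), 0.15 (KRT7 and KRT13), 0.19 (KRT8) and 0.27 (KRT19).

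**Figure D3:**
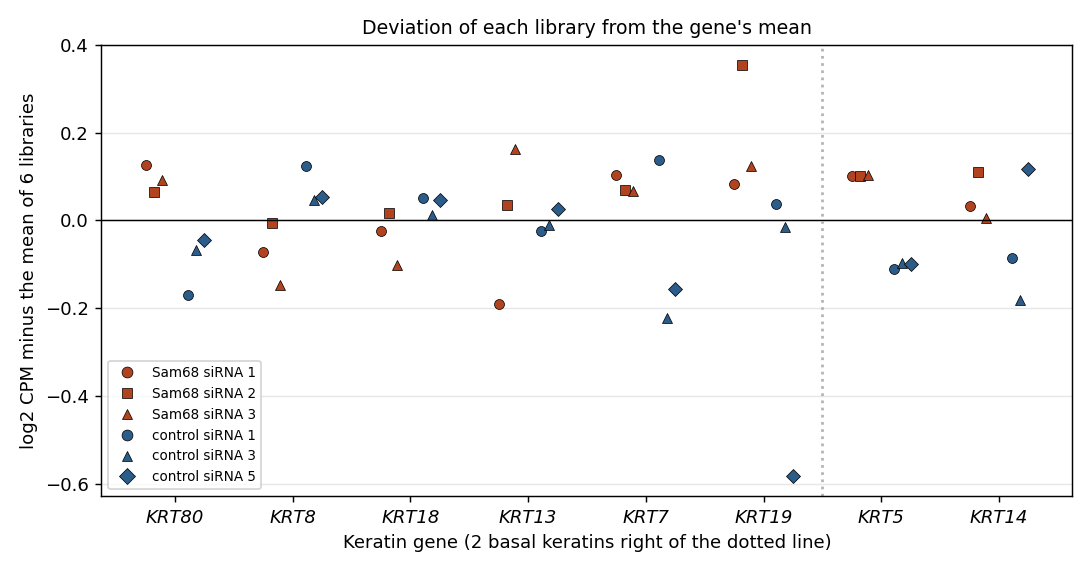
Log2 CPM of each library minus the gene's mean over 6 libraries (y axis) for the 6 tested genes and, right of the dotted line, the basal keratins KRT5 and KRT14, with Sam68 siRNA in red and control siRNA in blue. KRT80 and KRT5 are high in all 3 Sam68 siRNA libraries. KRT8 is below its mean in them, but only just in Sam68 siRNA replicate 2 (-0.0053). Control siRNA replicate 5 lies at -0.58 for KRT19.

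Filaments need paired chains, and 8 ratios between keratins were set up, some of them between chains of the same type. Of these 7 could be computed within each library, KRT4 over KRT13 being left out for its 0. Among the 7, KRT8 over KRT18 and KRT7 over KRT19 set a type II over a type I chain. The others compared chains of the same type. The design cannot take an exact permutation p below 0.1, so none can pass after adjustment over the 7 (lowest adjusted p = 0.14). KRT8 over KRT18 by TPM was 0.543, 0.553 and 0.543 in Sam68 siRNA libraries 1, 2 and 3, against 0.591, 0.575 and 0.564 in control siRNA libraries 1, 3 and 5. All 3 ratios with the Sam68 siRNA were lower, by a log2 difference of -0.08 (SD 0.01 and 0.03 within Sam68 siRNA and control siRNA libraries, exact permutation p = 0.1). Between type II chains the shift was larger. KRT80 over KRT8 was 0.679, 0.621 and 0.699 in Sam68 siRNA libraries, against 0.483, 0.548 and 0.554 in control siRNA libraries, a log2 difference of 0.34 (exact permutation p = 0.1, no overlap). KRT8 over the basal chain KRT5 was 0.401, 0.420 and 0.380 in Sam68 siRNA libraries, against 0.532, 0.499 and 0.502 in control siRNA libraries, a log2 difference of -0.35 (exact permutation p = 0.1, no overlap). By CPM per kilobase of the principal transcripts, KRT8 over KRT5 was 0.895, 0.936 and 0.847 in Sam68 siRNA libraries, against 1.19, 1.11 and 1.12 in control siRNA libraries, so which of them stood higher turned on the length and, by transcript length, differed between the groups. KRT7 over KRT8 differed by 0.31 and KRT19 over KRT18 by 0.48 in log2, also without overlap (exact permutation p = 0.1 each). Of the 5 ratios without overlap, all but KRT19 over KRT18 hold KRT8, whose own levels did not overlap, so these are not separate results. Among single genes 38.0% of all those tested did not overlap, and the share over all pairs of genes was not computed. KRT18 over KRT14 (-0.17, exact permutation p = 0.2) and KRT7 over KRT19 (-0.25, exact permutation p = 0.4) overlapped between groups. Without control siRNA replicate 5 the sign of each of the 7 differences was the same, but KRT19 over KRT18 differed by 0.26 and KRT7 over KRT19 by -0.07.

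**Figure D4:**
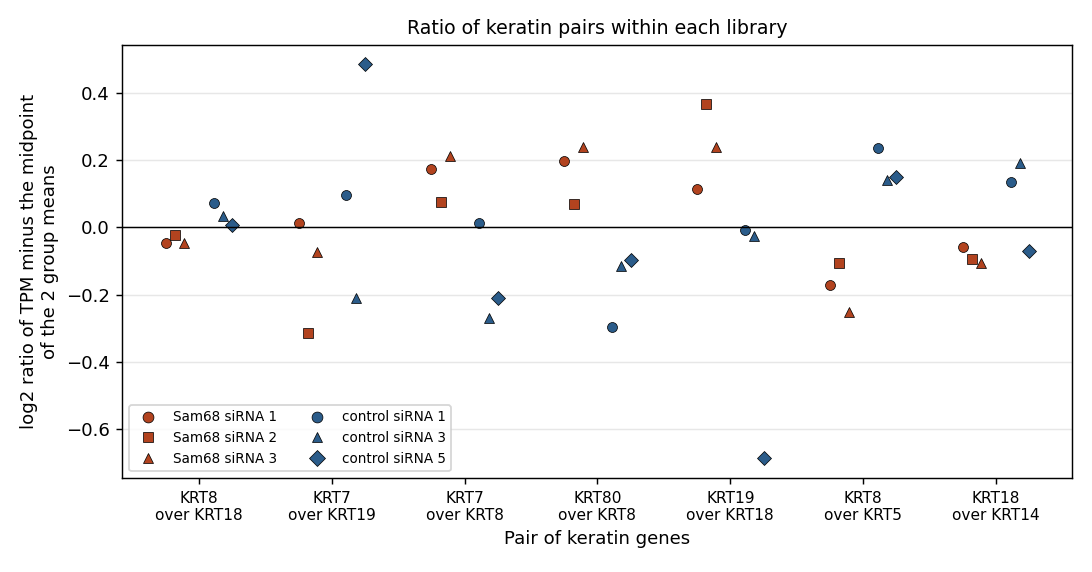
Log2 ratio of TPM for 7 pairs of keratin genes, some of the same type, in each library, less the midpoint of the 2 group means (y axis), with Sam68 siRNA in red and control siRNA in blue. The groups do not overlap for 5 of the 7 pairs, and all of these but KRT19 over KRT18 hold KRT8, whose own levels do not overlap.

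Among tested keratins of the chromosome 12 cluster, KRT8 and KRT18 were the 2 with a log2 fold change below 0. Neither was called, nor were most of the others there. On chromosome 17 KRT23 (-0.70), KRT9 (-0.56), KRT31 (-0.44), KRT16 (-0.20) and KRT17 (-0.02) also lay below 0, none of them called. KRT10, KRT13, KRT14, KRT15, KRT19 and KRT34 of that chromosome lay above 0. Type II keratins lie together on chromosome 12, with KRT18 as the type I gene at the far end, and the other type I keratins lie on chromosome 17. The table held 54 keratin genes, and 20 passed the filter. Outside the set 14 were tested, of which 3 rose, namely KRT5 and KRT15 of basal cells and KRT6B of stressed or dividing keratinocytes, and 0 fell (2 at an unadjusted p below 0.05 by edgeR), where 9.33% of all tested genes rose and 9.76% fell. KRT5, the basal type II chain, averaged 2708 ± 2.02 CPM with the Sam68 siRNA and 2352 ± 13.2 CPM with the control siRNA (SD, n = 3 each). Its log2 fold change of 0.20 had an SE of 0.04 and an edgeR adjusted p of 0.00692, and KRT5 was called in all 6 fits that left out 1 library. The KRT5 coefficient of variation was 0.0748% over Sam68 siRNA libraries, below the 0.467% that counting error alone gives. Over control siRNA libraries it was 0.562%, where counting error gives 0.510%. KRT15 (log2 fold change 0.31) lost its call without Sam68 siRNA replicate 2 or 3, and KRT6B (0.51) without Sam68 siRNA replicate 2 or control siRNA replicate 1. Among the 8 basal and stress keratins 3 rose and 0 fell (0 also by DESeq2, limma-voom and at an unadjusted p below 0.05), but 1 rose without Sam68 siRNA replicate 2, 2 without Sam68 siRNA replicate 3 or control siRNA replicate 1, and 6 without control siRNA replicate 5, while 1 fell without control siRNA replicate 3. KRT6A, KRT6B and KRT6C are near-identical relatives and their levels are uncertain. The 7 genes made up 33.5% to 34.4% of all keratin counts in Sam68 siRNA libraries and 34.9% to 37.2% in control siRNA libraries. These shares did not overlap. Each 95% Wilson interval spanned at most 0.415 percentage points and covers counting error only, not the spread between libraries. The summed CPM of the 7 genes did overlap, at 4418 to 4695 in Sam68 siRNA libraries and 4670 to 4776 in control siRNA libraries. The share also depends on the other keratins, of which 3 rose. Among single genes 38.0% of all those tested did not overlap.

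**Figure D5:**
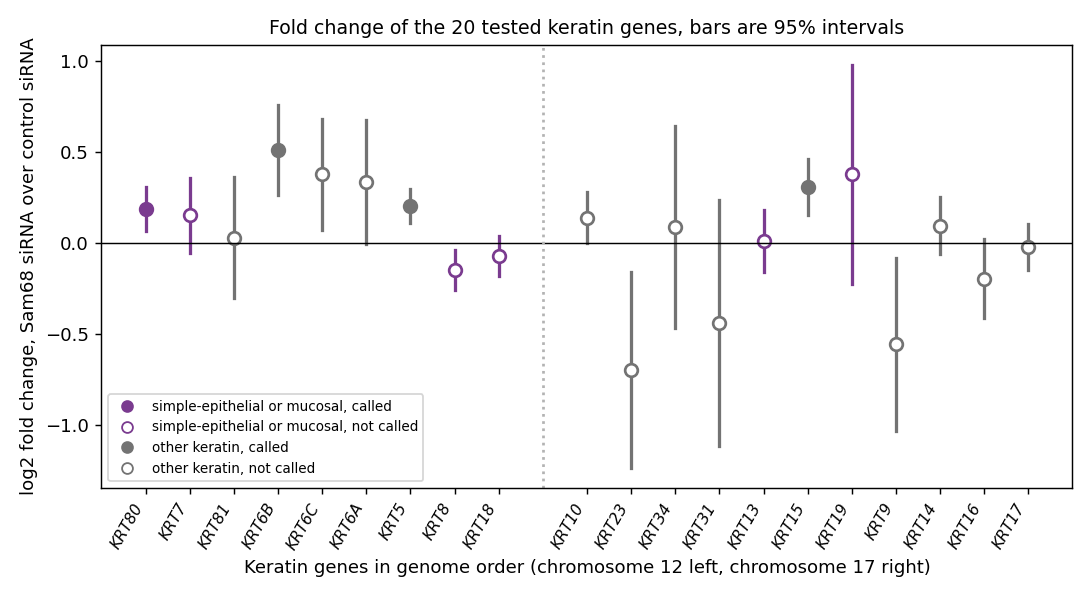
Log2 fold change of Sam68 siRNA over control siRNA with 95% intervals (y axis) for the 20 tested keratin genes in genome order, chromosome 12 left and chromosome 17 right, with the set in purple and filled points for called genes. On chromosome 12 KRT8 (-0.15) and KRT18 (-0.07), neither called, are the genes below 0, and KRT80 (0.19), KRT6B (0.51) and KRT5 (0.20) are called. On chromosome 17 KRT23, KRT9, KRT31, KRT16 and KRT17 also lie below 0, and KRT10, KRT13, KRT14, KRT15, KRT19 and KRT34 above it.

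In a list drawn up for genes that accompany KRT8 and KRT18 in simple and secretory epithelium, some genes fell. KRT8 and KRT18 themselves were not called, and whether the list is specific to that setting was not tested. Of its 18 genes 15 were tested, of which 0 rose, 5 fell and 10 were not called, where 9.33% of all tested genes rose and 9.76% fell. The median log2 fold change was -0.11 against -0.0048 over all tested genes. None rose by DESeq2 or limma-voom either, and 1 was higher at an unadjusted p below 0.05. PRSS8, the membrane protease prostasin, averaged 139 ± 3.64 TPM with the Sam68 siRNA and 238 ± 12.9 TPM with the control siRNA (SD, n = 3 each), a log2 fold change of -0.79. SLPI, a secreted protease inhibitor, averaged 430 ± 20.5 TPM with the Sam68 siRNA and 595 ± 31.1 TPM with the control siRNA (-0.48). AGR2, a disulfide isomerase of secretory cells, changed by -0.61, the tight junction protein CLDN4 by -0.28 and the surface glycoprotein CD24 by -0.21. PRSS8, SLPI and AGR2 were called in all 6 fits that left out 1 library. CLDN4 lost its call without Sam68 siRNA replicate 3, and CD24 lost it when any Sam68 siRNA library or control siRNA replicate 3 was left out.

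In a list drawn up for non-cornified mucosal differentiation, the setting of KRT4 and KRT13, some genes fell. The list is not specific to that setting, since it also holds genes of the cornified envelope. Of 26 genes 16 were tested, of which 1 rose, 6 fell and 9 were not called, where 9.33% of all tested genes rose and 9.76% fell, with a median log2 fold change of -0.46. EMP1, a membrane protein of squamous epithelium, averaged 62.8 ± 1.31 TPM with the Sam68 siRNA and 87.4 ± 7.56 TPM with the control siRNA (SD, n = 3 each), a log2 fold change of -0.48. ANXA1, the abundant phospholipid-binding protein annexin A1, averaged 1922 ± 119 TPM with the Sam68 siRNA and 2584 ± 191 TPM with the control siRNA (-0.43). SCEL and IVL of the cornified envelope changed by -1.18 and -1.30 and the plakin PPL by -0.51, and each of these 5 was called in all 6 fits that left out 1 library. MAL, a membrane raft protein chosen for naming after its value was seen, rose by 0.26 on the log2 scale (adjusted p = 0.0300 by edgeR). It lost its call when any Sam68 siRNA library or control siRNA replicate 3 was left out. KRT13, at 0.01, was not called, and its difference from these genes was not tested.

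Of 37 transcription regulators of epithelial and keratin genes 34 were tested, of which 5 rose, 2 fell and 27 were not called, with a median log2 fold change of 0.05. Over all tested genes 9.33% rose and 9.76% fell, so nothing is read from these counts. SP3, a relative of SP1 that binds GC-rich promoters, averaged 18.9 ± 1.81 TPM with the Sam68 siRNA and 13.7 ± 2.11 TPM with the control siRNA (SD, n = 3 each), a log2 fold change of 0.46. TP63, the master regulator of squamous epithelium, averaged 43.3 ± 2.70 TPM with the Sam68 siRNA and 34.3 ± 3.54 TPM with the control siRNA (0.33). PITX1, GRHL1 and KLF5 rose by 0.25, 0.36 and 0.25. The genes that fell, OVOL1 and GATA3, chosen for naming after their values were seen, changed by -0.31 and -0.21, and 0 fell by DESeq2 or by limma-trend with either pseudocount. SP3 was called in all 6 fits that left out 1 library, TP63 in 5, PITX1 and KLF5 in 3 and GRHL1 in 2, and TP63 lost its call without Sam68 siRNA replicate 3. The number that rose was 2 without Sam68 siRNA replicate 2, 1 without Sam68 siRNA replicate 3 and 3 without control siRNA replicate 1, and none fell when any Sam68 siRNA library or control siRNA replicate 3 was left out.

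Of 27 genes whose proteins link, fold or modify keratins, all tested, 0 rose, 7 fell and 20 were not called, where 9.33% of all tested genes rose and 9.76% fell, and the median log2 fold change was -0.12. For the 0, DESeq2 called 2 higher, limma-voom 0, and 3 were higher at an unadjusted p below 0.05. PPL, which ties keratin filaments to desmosomes, averaged 92.6 ± 6.18 TPM with the Sam68 siRNA and 131 ± 5.97 TPM with the control siRNA (SD, n = 3 each). It was also counted in the mucosal list above. PRKCE, a protein kinase C, averaged 2.84 ± 0.244 TPM with the Sam68 siRNA and 4.66 ± 0.380 TPM with the control siRNA (-0.72). The desmosomal plaque protein PKP2 changed by -0.30. SQSTM1, the autophagy receptor p62, changed by -0.95, but it overlaps MGAT4B in the genome and is uncertain. PPL and PRKCE were called in all 6 fits that left out 1 library, and PKP2 and SQSTM1 in 2. When Sam68 siRNA replicate 1, 2 or 3 was left out 4, 3 and 3 of the genes fell, and 4 when control siRNA replicate 3 was.

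Of 16 other intermediate filament genes 9 were tested, of which 1 rose and 2 fell, where 9.33% of all tested genes rose and 9.76% fell. LMNB2, a B-type lamin of the nuclear envelope, averaged 241 ± 8.64 TPM with the Sam68 siRNA and 159 ± 25.0 TPM with the control siRNA (SD, n = 3 each), a log2 fold change of 0.60. VIM, the mesenchymal filament vimentin, stood at 2.76 ± 0.0641 TPM with the Sam68 siRNA and 7.47 ± 2.50 TPM with the control siRNA, and NEFL, the neurofilament light chain, at 10.8 ± 1.18 TPM with the Sam68 siRNA and 15.1 ± 0.313 TPM with the control siRNA. All 3 were called in all 6 fits that left out 1 library, and 3 genes rose without control siRNA replicate 1. Against KRT18 at 2111 TPM, vimentin was a trace transcript in these cells.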

How the data were processed

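The deposited values, per the file headers, are whole-number counts, TPM and RPKM (both scaled to gene length) for every gene and library, with a deposited comparison with a log2 fold change, a p-value and an FDR whose test is not named. The submitters' processing notes name hg38. Which aligner, counter and strand setting were used is not given in the sources used. A further 6 columns of per-sample values, headed CPM, were not used.

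The counts were tested with edgeR 4.0.16 in R 4.3.3 after filterByExpr (minimum count 10, minimum total 15) and TMM scaling, using the robust quasi-likelihood F-test and Benjamini-Hochberg adjustment over 12351 genes. The SE is the one the F statistic implies. Log2 CPM used a prior count of 2. The steps were tested on simulated data, where the bound first set for false calls was exceeded and was then widened. Ratios of TPM were compared by exact two-sided permutation.

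As alternatives, DESeq2 1.42.0 and limma-voom (limma 3.58.1) were run, as were upper-quartile and RLE scaling, leaving off the filter or asking for 50 counts in 3 libraries, leaving off robust estimation, limma-trend on log2(TPM + 1) or log2(TPM + 0.1) at a mean of at least 1, RPKM for ratios, a replicate block and each library left out. Levels by transcript length (KRT8 over KRT18 and over KRT5), from GENCODE 29, were added after seeing the data. Python 3.11.15 was used with scipy 1.17.1.

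Members and lists were chosen with earlier results of these data known. Named genes are the 7 members, the tested keratins, up to 5 called genes per list by smallest p, and the 3 genes most like a called member. Some items that this rule covers are not reported here. Groups came from the sample titles. Depth and counting intervals stand beside the values.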

Additional observations from a re-analysis of the deposited data

How the results depend on the processing

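The rise of KRT80 kept its sign and lost its call in some fits. It was called under RLE and upper-quartile scaling, DESeq2, limma-voom, no filter, the stricter filter and no robust estimation. Limma-trend gave 0.19 with either pseudocount (adjusted p = 0.0592 with 1 and 0.059 with 0.1). With a replicate block the KRT80 value was 0.23 (adjusted p = 0.12). In these 3 fits 0 members rose. With the block KRT19 was 0.10, against 0.38 without it, 3 genes of the simple-epithelial list fell and 4 linkers fell while 2 rose. Without 1 library the KRT80 value was 0.15 to 0.21 and the number of members that rose was 0 to 1, the 1 being KRT7 without control siRNA replicate 1 and KRT80 without control siRNA replicate 5. The count of changed genes, 2358, was 1046 with the replicate block and 1112 to 2666 without 1 library. The block shares only the numbers 1 and 3, whose libraries deviated together with correlations of -0.066 and 0.077, so the numbers were not taken as pairs. Without 1 library KRT7 gave 0.082 to 0.27, past the threshold at the top, and KRT13 gave -0.079 to 0.10, reversing to -0.0069 and -0.079 without Sam68 siRNA replicates 2 and 3. The log2 level of KRT8 over KRT18 reversed to 0.19 with the length of a single transcript per gene, since that length replaces the longer one behind the TPM. That of KRT8 over KRT5 went from -1.15 by TPM to 0.012, a mean over libraries on both sides of equality. Its ratio stayed below equality in Sam68 siRNA libraries (0.895, 0.936 and 0.847) and lay above it in control siRNA libraries (1.19, 1.11 and 1.12). Of 49 ratio differences under other settings 49 had the same sign, though those that hold KRT19 shrank without control siRNA replicate 5. RPKM was among these settings and leaves a ratio within a library unchanged, so its part of the 49 was fixed in advance. Of the list counts, 252 of 288 were within 1.5 times. The alternatives that add pseudogene rows were not run, because rows with such names were not analysed here. KRT19 had 14 to 31 counts a library and KRT4 0 to 7, and counting error limits both.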

Other observations

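The spread between libraries differed by gene and group. KRT13 had a coefficient of variation of 12.2% over Sam68 siRNA libraries and 1.803% over control siRNA libraries, where counting error alone gives 2.11% and 2.16%. KRT7 had 1.43% over Sam68 siRNA libraries and 13.8% over control siRNA libraries, where counting error gives 3.84% and 4.13%. Between 3 libraries such differences in spread were not tested.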
